A study of Saccharomyces cerevisiae with 36 samples.

Results

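The genes described here encode 60 ribosome biogenesis factors of the budding yeast Saccharomyces cerevisiae, the nucleolar and nuclear proteins that make and assemble the ribosome without being part of it. They were taken from a list of gene symbols, and all 60 were found, each with 1 probe set, among 5449 genes measured on Affymetrix Yeast Genome 2.0 arrays. The list was not drawn up from the values, but it was drawn up when earlier results of these data were known. RNA came from 36 cultures of BY4741, a laboratory yeast with 1 set of chromosomes and mating type MATa, which carries his3, leu2, met15 and ura3 deletions, grown at 30 degrees in minimal medium of pH 6.5. Cells met 1 of 6 pesticides for 2 h at the IC20, a dose described as equally toxic for all 6, and each pesticide was compared with 3 control cultures of its own, run together with it and given no pesticide. The doses were 200 mg/L of alachlor, 160 mg/L of carbofuran, 80 mg/L of diuron, 115 mg/L of MCPA-ME, 20 mg/L of pyrimethanil and 220 mg/L of S-metolachlor, with 3 arrays in each of the 12 groups. Alachlor and S-metolachlor are chloroacetanilide herbicides, diuron is a phenylurea herbicide, MCPA-ME is the methyl ester of a phenoxy herbicide, carbofuran is an insecticide of the carbamate class and the last, pyrimethanil, is a fungicide. The alachlor IC20 arrays carry an unexplained mark in their titles.

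Ribosome assembly starts in the nucleolus, where RNA polymerase I makes a long precursor of the ribosomal RNAs. Factors of the small subunit, among them the UtpA and UtpB complexes and the particle of the U3 small nucleolar RNA, fold onto this precursor and cut it. Box C/D particles methylate it, RNA helicases remodel it, and a further set of factors carries the large subunit precursor to the cytoplasm. In yeast the genes for these factors are transcribed together with growth rate and fall together when growth conditions worsen, which makes them a well-known readout of growth signalling.

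The values are probe set intensities, a linear unit made by the submitters, and values under 32 were set to 32 before log2 was taken. The lowest value of any factor was 361.7, so that none of the 60 was touched by the floor in any array. A log2 change is IC20 minus own control, from limma fitted to all 36 arrays, with p-values adjusted over the 5449 genes, and a gene was called higher or lower at an adjusted p under 0.05. Intensities are relative to the rest of the RNA on an array, and fewer cells making a transcript and less of it per cell cannot be told apart. Array medians lay between 1319.6 and 1511.4. Of the MATa genes MFA1, MFA2 and STE2 were bright in every array (STE2 from 8519 to 19932), while AGA2 and BAR1 went down to 1608 and 982.3. The MATalpha genes MF(ALPHA)1, MF(ALPHA)2 and STE3 read at most 62.98, 237.3 and 249.6, but SAG1 read from 483 to 1736. The deleted genes URA3, MET17 and LEU2 lay at or below 24.41, 68.24 and 194.6. HIS3, which lost only an inner stretch in this strain, read from 4142 to 11322 and checks nothing.

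The mean log2 intensity of the 60 factors, set against their own mean over the 36 arrays, put 2 IC20 arrays apart from their groups. In the carbofuran IC20 group this mean was 0.18 in array 1 but -0.45 and -0.34 in arrays 2 and 3. In the MCPA-ME IC20 group it was 0.16 in array 2 but -0.48 and -0.46 in arrays 1 and 3. These arrays raise the spread on which every test rests, since all groups share it, and counts are therefore also given without them, a choice made after the data were seen. Both arrays were picked because these same factors were high in them. Leaving them out therefore lowers the factors' changes with carbofuran and MCPA-ME by construction, and such counts are no separate support for a fall. The SD between replicates over the 60 genes was 0.53 (log2) in the MCPA-ME IC20 group and 0.45 in the carbofuran IC20 group, against 0.08 to 0.21 in the other 10 groups. The p-values for MCPA-ME and carbofuran thus rest on a shared spread smaller than that of their own IC20 arrays.

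**Figure D1:**
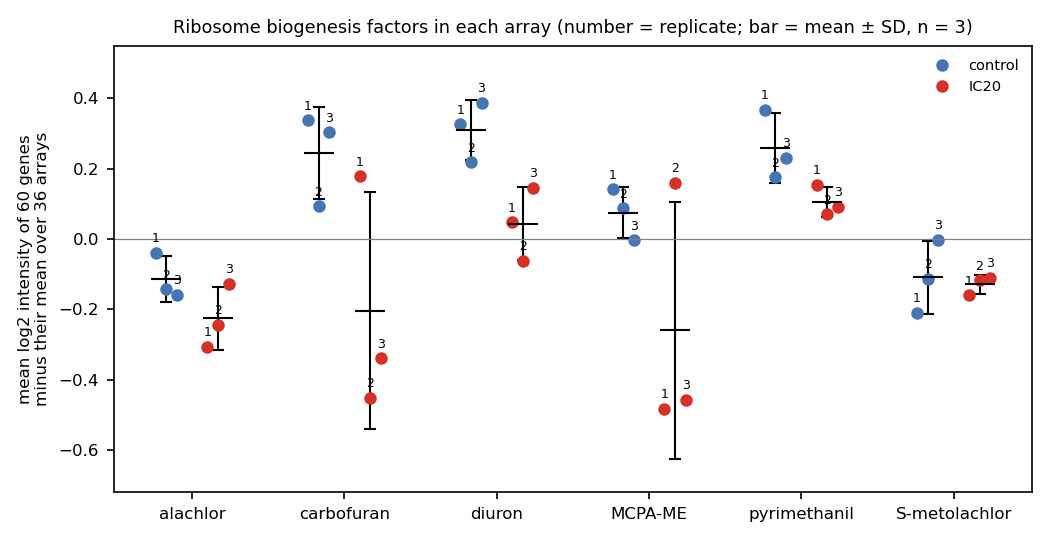
Mean log2 intensity of the 60 ribosome biogenesis factors in each array minus their mean over all 36 arrays, by pesticide, with control arrays in blue, IC20 arrays in red, replicate numbers beside the points and bars for mean ± SD of 3 arrays. Carbofuran IC20 array 1 (0.18) and MCPA-ME IC20 array 2 (0.16) lie far above the other 2 arrays of their groups, and the control groups lie at different heights, from -0.11 to 0.31.

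Ribosome biogenesis factors were on balance lower with the pesticides other than S-metolachlor. The median log2 change of the 60 was -0.43 with carbofuran, -0.34 with MCPA-ME, -0.27 with diuron, -0.17 with pyrimethanil, -0.10 with alachlor and -0.055 with S-metolachlor, while the median of all 5449 genes lay between -0.04 and 0.00 in each comparison. The change was negative for 60 factors with MCPA-ME, 59 with diuron, 55 with alachlor, 50 with carbofuran, 47 with pyrimethanil and 34 with S-metolachlor. Of all 5449 genes it was negative for 2899, 2665, 2572, 2817, 3147 and 2948, in the same order. The S-metolachlor count was thus near the share of all genes. Over the 6 comparisons, which share no arrays, 21 factors had a negative change in all 6 and 25 in 5. How many of all genes did so was not counted. By limma 45 factors were called in at least 1 comparison and 15 in none, a count that was not made for all genes. The 2 factors that were called higher anywhere were UTP15, with carbofuran, and UTP6, with S-metolachlor, and each was called lower with other pesticides.

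With carbofuran 30 of the 60 factors were called lower, where 23.7% of all genes tested were, and 1 was called higher, where 18.4% were. With MCPA-ME 13 were called lower (8.61% of all genes), with diuron 13 (5.84%), with pyrimethanil 6 (9.71%), with S-metolachlor 5 (14.4%) and with alachlor 1 (1.5%). As shares of the 60 these were 50%, 21.7%, 21.7%, 10%, 8.33% and 1.67%, so that the factors were above the share of all genes with carbofuran, MCPA-ME and diuron, near it with pyrimethanil and alachlor and below it with S-metolachlor. S-metolachlor had 1 factor higher (10.1% of all genes), and alachlor (3.52%), diuron (8.52%), MCPA-ME (9.97%) and pyrimethanil (6.39%) had 0 higher by limma, also at an unadjusted p under 0.05. Without the 2 arrays that stand apart the factors called lower were 47 with carbofuran (31.8% of all genes), 43 with MCPA-ME (16%), 23 with diuron (9.08%), 13 with pyrimethanil (14.4%), 11 with S-metolachlor (19%) and 1 with alachlor (3.17%). The arrays were picked by the factors and not by all genes. For carbofuran and MCPA-ME the shares of all genes are thus no fair background to these counts.

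**Figure D2:**
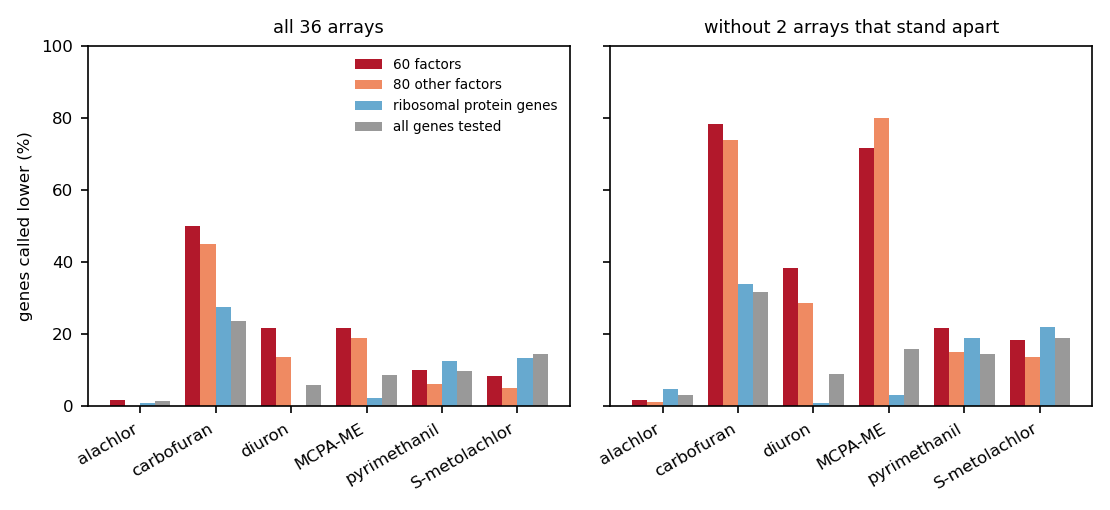
Share of genes called lower by limma with each pesticide, in percent, for the 60 factors, 80 other ribosome biogenesis factors, 127 cytosolic ribosomal protein genes and all 5449 genes, with all 36 arrays (left) and without the 2 arrays that stand apart (right). The carbofuran bar of the 60 factors goes from 30 genes to 47 and the MCPA-ME bar from 13 to 43, while that of alachlor is 1 gene on each side. The 2 arrays were picked because these 60 factors were high in them.

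**Figure D3:**
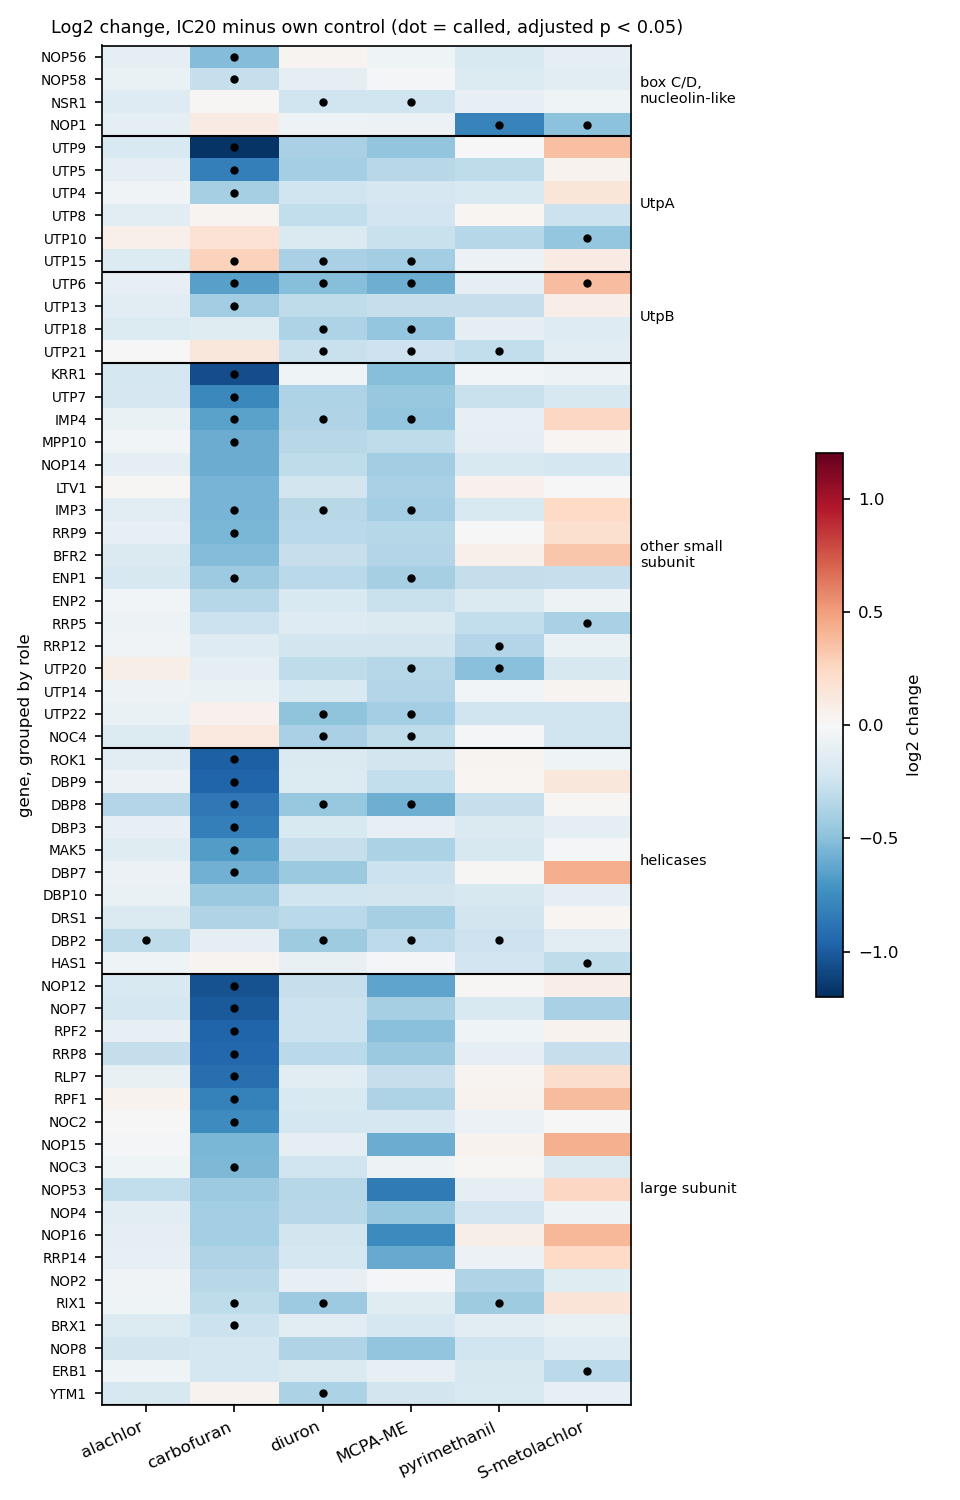
Log2 change of each of the 60 factors (rows, grouped by role) with each pesticide (columns), blue for lower and red for higher in the IC20 arrays, with a dot where limma called the gene. Carbofuran holds 31 dots, the small subunit rows carry most of those for diuron and MCPA-ME, and the S-metolachlor column holds both colours, with 34 changes below 0 and 26 above.

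Carbofuran gave the deepest falls, which occurred in every role, while other subunits of the same complexes were not called or rose. UTP9, a subunit of the UtpA complex that binds the precursor first, had intensities of 4936, 3432 and 4368 in the control arrays and 2786, 1582 and 1441 in the IC20 arrays. Every IC20 value lay below every control value, and the gene fell 2.27-fold (log2 change -1.18 ± 0.20 SE, limma adjusted p = 6.86e-05). UTP5 (-0.82) and UTP4 (-0.40), also of UtpA, fell too, with IC20 values below all controls. UTP15, of the same complex, went the other way, with 5598, 5686 and 5732 in the control arrays and 6869, 7282 and 6534 in the IC20 arrays. It rose 1.21-fold (log2 change 0.28 ± 0.09 SE, limma adjusted p = 0.0165) and all 3 IC20 values lay above all controls. The call was lost without control array 1 and without IC20 array 2. The remaining UtpA genes UTP10 and UTP8 had changes of 0.17 (95% interval -0.07 to 0.42) and 0.03 (-0.21 to 0.27) and were not called.

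In UtpB, which joins after UtpA, UTP6 had 3443, 2838 and 3202 in the control arrays and 2419, 1950.3 and 1699 in the IC20 arrays. It fell 1.57-fold with carbofuran without overlap (log2 change -0.65 ± 0.13 SE, limma adjusted p = 0.000216), and UTP13 fell as well (-0.42, limma adjusted p = 0.00276). The other 2 measured subunits, UTP18 (-0.14) and UTP21 (0.14), were not called. Of 17 further small subunit factors 7 fell. KRR1, which carries a KH domain and is needed for the small subunit, had 4101, 2497 and 3818 in the control arrays and 2482, 1125 and 1532 in the IC20 arrays. All IC20 values lay below all controls, array 1 by a small margin, and the log2 change was -1.06 (limma adjusted p = 0.00153). The genes of the 3 proteins of the Mpp10 complex, which acts with the U3 RNA, were each called lower. MPP10 fell by 0.59, IMP4 by 0.65 and IMP3 by 0.55 on the log2 scale, though array 1 of MPP10 overlapped its controls. IMP3 had its highest control level of the 6 groups with carbofuran (12.39 on the log2 scale), and its change was 0.13 with all 18 controls as 1 group. UTP7 (-0.78), RRP9, a U3 particle protein (-0.55), and ENP1, which goes with the small subunit to the cytoplasm (-0.43), were the other 3, RRP9 with overlapping groups.

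Of the 10 RNA helicases, which all belong to the DEAD-box family, 6 fell with carbofuran. ROK1, of the small subunit, went from 3182 ± 401 to 1677 ± 618 (SD, n = 3), a log2 change of -0.98 (limma adjusted p = 0.000139). DBP9, of the large subunit, had a change of -0.97, DBP8, of the small subunit, -0.86, DBP3 -0.82, MAK5 -0.67 and DBP7 -0.58. DBP3 had the lowest adjusted p of all 60 factors with carbofuran (3.94e-05), with 8024, 7983 and 7890.0 in the control arrays and 5862, 3686 and 4282 in the IC20 arrays. HAS1 (0.03, 95% interval -0.14 to 0.21) and DBP2 (-0.11, -0.28 to 0.07) were not called.

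Large subunit factors made up 10 of the 30 falls, out of 19 measured. NOP12, an RNA-binding protein, had a change of -1.04, but its array 1 value of 3766 overlapped the controls, which ran from 3534 to 5986. NOP7, a scaffold that works in a complex with ERB1 and YTM1, had 7626, 6692 and 7214 in the control arrays and 5905, 2319.8 and 3303 in the IC20 arrays, a fall of 2.01-fold (log2 change -1.01 ± 0.22 SE, limma adjusted p = 0.000625). Its partners ERB1 (-0.21, 95% interval -0.42 to -0.00) and YTM1 (0.04, -0.15 to 0.24) were not called. RPF2, which helps bring in the 5S RNA, changed by -0.96, RRP8, a methyltransferase, by -0.94, RLP7 by -0.90, RPF1 by -0.81, and the transport factors NOC2 and NOC3 by -0.76 and -0.54. RIX1 (-0.31) and BRX1 (-0.26) completed the 10. MPP10, RIX1 and BRX1 were each called in 2 of the 6 fits that left out an array, and UTP4 and NOP58 in 4. Of the box C/D core NOP56 fell by 0.52 and NOP58 by 0.28 on the log2 scale, while NOP1, the methyltransferase of that particle, was at 0.10 and NSR1, the yeast relative of nucleolin, at 0.02.

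The carbofuran values rest on arrays 2 and 3 more than on array 1. Set against the control mean, the 60 factors had a median of -0.07 in array 1, -0.76 in array 2 and -0.58 in array 3. The medians of all genes were 0.009, -0.003 and -0.03. Without array 1 the changes of UTP9, NOP12, NOP7 and KRR1 were -1.48, -1.40, -1.37 and -1.37. In the 6 carbofuran arrays alone limma called 6 lower and 1 higher, where 11.9% of all genes were lower, and an unadjusted p under 0.05 was reached by 27 lower and 3 higher. All 31 factors called with all arrays were also called without the 2 arrays that stand apart, a fit that favours falls by its choice of arrays. With all 18 controls as 1 group 28 were called, of which 13 were among the 31, and the median change of the 60 was -0.26. The share of all genes was not counted for that fit. In it the changes of DBP7, NOC3 and BRX1 turned to 0.05, 0.05 and 0.03, and that of IMP3 turned positive too. With array weights the median change of the 60 was -0.68.

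With MCPA-ME limma called 3 of 4 UtpB subunits, 6 of 17 other small subunit factors and 0 of 19 large subunit factors lower. The large subunit factors had a median change of -0.40 and 6 at an unadjusted p under 0.05, the other small subunit factors a median of -0.36, and without the 2 arrays that stand apart 13 and 12 of them were called, so that the roles are not shown to differ. The IC20 values of 14 factors lay below all 3 controls, where 7.98% of all genes were so placed, and 0 lay above (10.9%). UTP6 had 2714, 3199.7 and 2731 in the control arrays and 1744, 2295 and 1747 in the IC20 arrays, a fall of 1.5-fold (log2 change -0.59 ± 0.13 SE, limma adjusted p = 0.00152). Every IC20 array, array 2 included, lay below every control. UTP18, also of UtpB, had 3357, 3863 and 3088 in the control arrays and 2451, 2385 and 2625 in the IC20 arrays and changed by -0.46, and UTP21 changed by -0.25 with overlapping groups. The helicase gene DBP8 fell 1.5-fold (log2 change -0.59 ± 0.15 SE, limma adjusted p = 0.0067), with 1702, 2105 and 1844 in the control arrays and 1133, 1565 and 1099.7 in the IC20 arrays. IMP4, of the Mpp10 complex, had 3980.2, 4404 and 4187 in the control arrays and 2746, 3791 and 2695 in the IC20 arrays, a log2 change of -0.46 without overlap (limma adjusted p = 0.00828), lost without IC20 array 3. DBP2 had 12947, 14284 and 13151 in the control arrays and 10757, 10838 and 10932 in the IC20 arrays (-0.31), with the 3 IC20 values close together and below all controls. Falls were also called in IMP3 (-0.41), UTP15 (-0.42), UTP22, which joins the particle with Rrp7 (-0.41), ENP1 (-0.40), UTP20 (-0.35), NOC4, the partner of Nop14 (-0.31), and NSR1 (-0.24), with overlapping groups for ENP1 and NSR1. ENP1, UTP21 and NSR1 were called in 2, 2 and 3 of the 6 fits that left out an array, and UTP22, UTP20 and NOC4 were not called without IC20 array 2.

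The count for MCPA-ME turned on IC20 array 2, in which 28 of the 60 factors lay above all 3 controls and 16 below, while 56 lay below in array 1 and 54 in array 3 with 0 above. For 26 factors array 2 was above every control and arrays 1 and 3 below every control. The shares of all genes placed in these ways in single arrays were not counted. NOP53, a large subunit factor that recruits the exosome helicase, had 3376, 1686 and 2151 in the control arrays and 844, 2955 and 836 in the IC20 arrays. Its log2 change was -0.85 with all arrays (limma adjusted p = 0.0611) and -1.46 without the 2 arrays that stand apart (adjusted p = 1.18e-05). NOP16 (-1.48), RRP14 (-1.40), NOP15 (-1.19) and NOP12 (-0.98) led the list of changes without these arrays, and all 4 belong to the large subunit. At the other end NOP1 (-0.07), HAS1 (-0.02) and ERB1 (-0.09) were not called without them either. Of the 13 factors called with all arrays 10 were also among the 43, and a fit to only the MCPA-ME arrays called 0, with 9 lower at an unadjusted p under 0.05 and 0.275% of all genes called lower. With all 18 controls as 1 group 16 were called, of which 5 were among the 13, and the share of all genes was not counted.

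**Figure D4:**
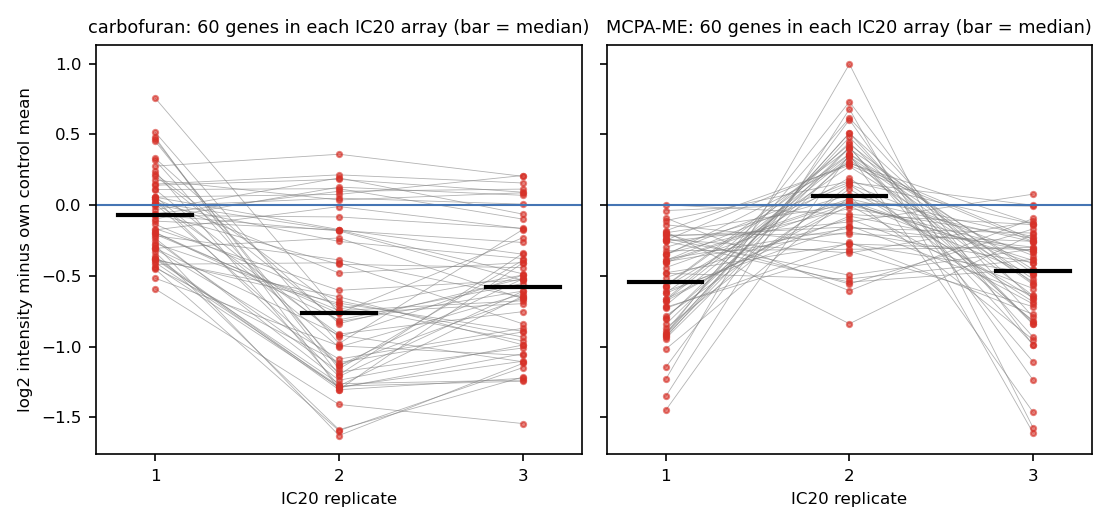
Log2 intensity minus the mean of the 3 own controls for each of the 60 factors (points, joined by lines) in each IC20 array of carbofuran (left) and MCPA-ME (right), with bars for the medians and a blue line at no change. The medians are -0.07, -0.76 and -0.58 for carbofuran and -0.54, 0.07 and -0.47 for MCPA-ME.

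With diuron the changes were small and nearly uniform in sign, with 59 of 60 negative and 37 with all 3 IC20 values below all 3 controls, where 19% of all genes were so placed. UTP6 had the largest change of the 60, with 3022, 2950.0 and 3244 in the control arrays and 2090.5, 1815 and 2623 in the IC20 arrays. It fell 1.43-fold (log2 change -0.51 ± 0.13 SE, limma adjusted p = 0.00591), and array 3 came closest to the controls. UTP22 had 3133, 3399 and 3550.3 in the control arrays and 2449.8, 2414 and 2339.9 in the IC20 arrays (log2 change -0.48 ± 0.11 SE, limma adjusted p = 0.00288), with little spread in either group. RIX1, which names a complex of late large subunit assembly, had 3200.1, 2856 and 3137 in the control arrays and 2229, 2053 and 2510.3 in the IC20 arrays and changed by -0.44. DBP2, a helicase gene with roles in ribosomal RNA processing and messenger RNA export, had the lowest adjusted p (0.000665) at -0.43, with 12390.4, 11932 and 14786 in the control arrays and 9608, 8487 and 10975 in the IC20 arrays and no overlap.

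The other 9 falls with diuron were DBP8 (-0.46, with overlapping groups), UTP15 (-0.39), NOC4 (-0.39), YTM1 (-0.38), UTP18 (-0.37), IMP4 (-0.36), IMP3 (-0.33), UTP21 (-0.27) and NSR1 (-0.24). Of the 4 UtpB subunits among the 60, 3 were lower, as with MCPA-ME, and of the large subunit factors 2 of 19. Array 2 had the lowest factors, with a median of -0.37 against the control mean, beside -0.25 in array 1 and -0.18 in array 3. The medians of all genes were 0.01 in arrays 1 and 2 and -0.01 in array 3. In the 6 diuron arrays alone limma called 12 lower (7.54% of all genes). DBP8, IMP4 and UTP21 were called in 2 of the 6 fits that left out an array, and UTP6 and RIX1 in all but that without IC20 array 2. With the replicate block, which pairs same-numbered cultures, 17 were called. The count was 4 without IC20 array 2 and 5 without control array 3, and 1 when all 18 controls were taken as 1 group. For the block and these fits shares of all genes were not counted.

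With pyrimethanil NOP1 stood out. This gene encodes fibrillarin, the box C/D methyltransferase, and had 14401, 10210.1 and 11772 in the control arrays and 6839, 6284 and 7611 in the IC20 arrays. It fell 1.74-fold (log2 change -0.80 ± 0.16 SE, limma adjusted p = 0.00096) without overlap. Against the mean over the other 5 pesticides the change differed by -0.67 (limma adjusted p = 0.0133), a difference that was not called without control array 1 or IC20 array 2. The fall was called under each of the 11 other settings of the fit tried and without any of the 6 arrays, with adjusted p-values of up to 0.0258. UTP20, a very long protein of helical repeats, had 6959.8, 5758 and 5903 in the control arrays and 4742, 4569.9 and 3828 in the IC20 arrays and changed by -0.50 (limma adjusted p = 0.0016), and RIX1 had 4056, 3424 and 3625 in the control arrays and 3071, 2481 and 2736 in the IC20 arrays (-0.42). RRP12 (-0.36), a factor for export of both subunits, UTP21 (-0.30) and DBP2 (-0.25) also fell. DBP2 had 16377, 13771 and 13025 in the control arrays and 13129.9, 11877 and 11174 in the IC20 arrays, and the groups overlapped. NOP56 (-0.18) and NOP58 (-0.16), the core proteins that hold Nop1 in the particle, were not called. In the 6 pyrimethanil arrays alone 5 were called lower (8.97% of all genes). The 6 falls were 10 with the replicate number as a block, in which same-numbered cultures are paired, 2 without control array 1, 3 without IC20 array 2 or IC20 array 3 and 2 with all 18 controls as 1 group. Shares of all genes were not counted for these fits.

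S-metolachlor changed the factors in both directions, with a median near 0. UTP10, the largest UtpA protein, had 5301, 5773 and 5701 in the control arrays and 3932, 4416 and 3844 in the IC20 arrays and fell 1.38-fold (log2 change -0.46 ± 0.12 SE, limma adjusted p = 0.00605), without overlap and with the call kept when any of the 6 arrays was left out. NOP1 had 11961, 11383 and 12003 in the control arrays and 8389, 8455 and 8263 in the IC20 arrays, a change of -0.49 (limma adjusted p = 0.0238). RRP5, a factor of both subunits, had 6494, 7394 and 7592 in the control arrays and 5158, 5859 and 5319 in the IC20 arrays and changed by -0.39. ERB1 (-0.33) and HAS1 (-0.31) were the other 2 falls. Of the 6 fits that left out an array NOP1 was called in 1, the one without control array 2, RRP5 in 3, ERB1 in 2 and HAS1 in 5. UTP6 rose, with 1627, 1743 and 1964 in the control arrays and 2317, 2192 and 2388 in the IC20 arrays (log2 change 0.37 ± 0.13 SE, limma adjusted p = 0.0322), the opposite of its direction with carbofuran, MCPA-ME and diuron. This call was lost without control array 1 or 2 and without IC20 array 1 or 3. With all 18 controls as 1 group the change of UTP6 turned to -0.16. The S-metolachlor controls had the lowest UTP6 level of the 6 control groups (10.79 on the log2 scale, the others from 11.19 to 11.62). The direction of UTP6 with S-metolachlor thus depends on which controls are used.

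Further factors had positive changes with S-metolachlor that did not pass the test with all arrays. DBP7, a large subunit helicase, had 1658, 2046 and 2261 in the control arrays and 2543, 2806 and 2636 in the IC20 arrays (log2 change 0.43 ± 0.17 SE, limma adjusted p = 0.0652), and NOP15 (0.43), NOP16 (0.40), RPF1 (0.38), UTP9 (0.36) and BFR2 (0.33) had positive changes of the same kind. In DBP7 every IC20 value exceeded every control value, as it did for 12 factors in all (24.5% of all genes), while 18 had every IC20 value below every control (30.4%). In the 6 S-metolachlor arrays alone limma called 10 lower (20.6% of all genes) and 8 higher (13.3%, below the 16.7% of all genes), and without the 2 arrays that stand apart 11 lower and 7 higher (11.7%, below the 15.8% of all genes). The lower count was 1 without control array 3 and 2 without IC20 array 1 or IC20 array 3.

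Alachlor, the other chloroacetanilide, was given at 200 mg/L and S-metolachlor at 220 mg/L, so the 2 are set side by side without a test. DBP2 had 8678, 7969 and 8297 in the control arrays and 6647, 6760.4 and 6748 in the IC20 arrays with alachlor (log2 change -0.31 ± 0.08 SE, limma adjusted p = 0.0291), without overlap. This was the only factor called, and the call was lost when any of the 6 arrays was left out, at adjusted p-values of up to 0.129. DBP2 with S-metolachlor was at -0.14. UTP10, NOP1 and UTP6 with alachlor were at 0.06 (95% interval -0.18 to 0.31), -0.12 (-0.44 to 0.21) and -0.10 (-0.36 to 0.16), where S-metolachlor gave -0.46, -0.49 and 0.37. Alachlor had 19 factors with all IC20 values below all controls (13.6% of all genes) and 0 above (17.2%). In array 3 of the IC20 group 14 factors lay above all controls and 24 below, against 0 above in arrays 1 and 2. In the 6 alachlor arrays alone 3 were called lower (3.23% of all genes). With all 18 controls as 1 group 20 were called lower and the median change was -0.33, and the share of all genes was not counted.

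The factors called with the most pesticides were DBP2 and UTP6, each with 4. DBP2 fell with alachlor, diuron, MCPA-ME and pyrimethanil, by 0.25 to 0.43 on the log2 scale, and its change with carbofuran was -0.11. UTP6 fell with carbofuran, diuron and MCPA-ME and was at -0.10 with alachlor and -0.11 with pyrimethanil. It rose with S-metolachlor against its own controls, where its control level was the lowest of the 6 groups. DBP8, IMP3, IMP4, RIX1 and UTP21 fell with 3 pesticides each, and UTP15 fell with 2 and rose with 1. KRR1, called with carbofuran, had changes of -0.51 with MCPA-ME, -0.21 with alachlor, -0.06 with diuron, -0.06 with S-metolachlor and -0.03 with pyrimethanil that were not called, and without the 2 arrays that stand apart it was called lower with MCPA-ME too (-0.97, limma adjusted p = 2.48e-05).

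**Figure D5:**
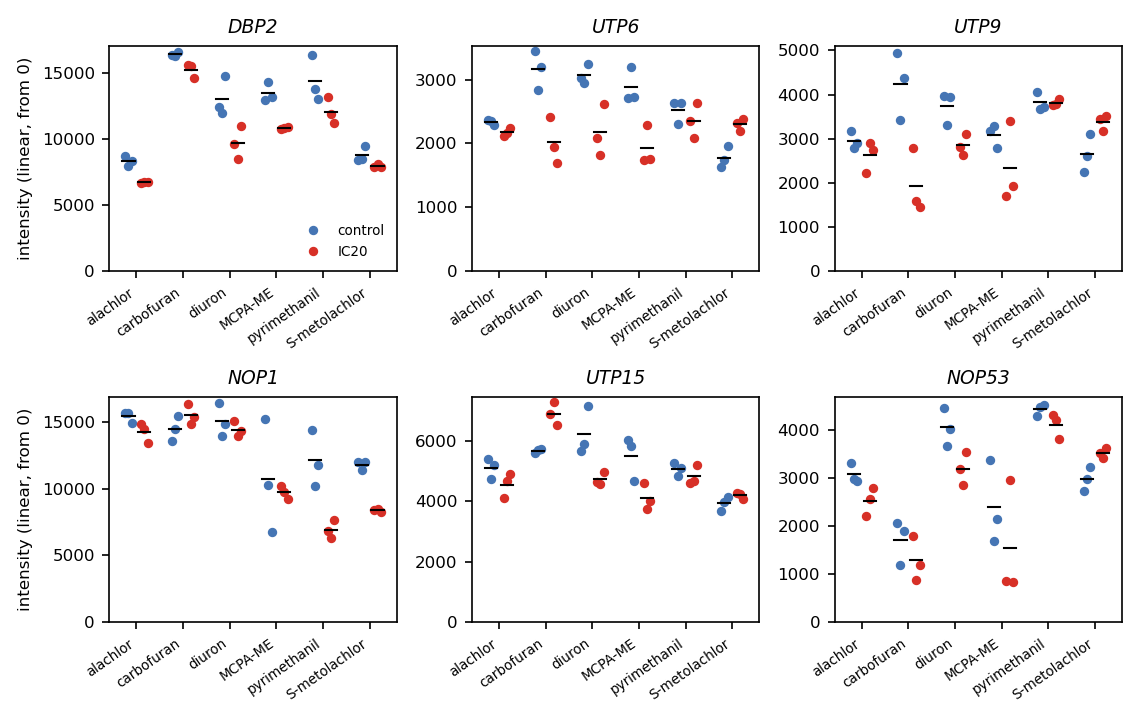
Intensity of 6 factors in all 36 arrays (linear axis from 0), controls in blue and IC20 arrays in red, with black bars for group means. DBP2 is lower in the alachlor, diuron and MCPA-ME IC20 arrays, UTP6 is lower with carbofuran, diuron and MCPA-ME and higher with S-metolachlor, UTP9 is lowest with carbofuran, NOP1 with pyrimethanil, UTP15 is higher with carbofuran, and NOP53 shows MCPA-ME IC20 array 2 far above arrays 1 and 3.

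The test that set the change with each pesticide against the mean over the other 5 separated carbofuran and S-metolachlor most. With carbofuran 23 factors had a lower change than with the others (22.9% of all genes tested) and 6 a higher change (18.5%). UTP9 differed by -1.04 (limma adjusted p = 0.00075), DBP9 by -0.89 and KRR1 by -0.89. The 6 on the other side were UTP15 (0.47, adjusted p = 0.000751), UTP10 (0.41), UTP22 (0.34), NOC4 (0.34), UTP21 (0.33) and YTM1 (0.26). With S-metolachlor 8 had a higher change (6.46% of all genes) and 0 a lower one (6.24%), led by UTP9 (0.80), UTP6 (0.77, adjusted p = 0.000557) and DBP7 (0.70), with IMP4, IMP3, DBP8, RIX1 and UTP13 after them. MCPA-ME had 1 lower, UTP15 (-0.36), and 0 higher, where 4.35% and 4.28% of all genes were. Pyrimethanil had 1 lower, NOP1, and 0 higher (5.21% and 2.81%). Alachlor had 0 lower and 0 higher (0.0918% and 0.239%) and diuron 0 lower and 0 higher (2.04% and 3.23%), by limma. With the replicate block, which the diuron pairs bear out, 3 differed with diuron. For carbofuran 18 differed when control array 1 was left out, 15 when IC20 array 2 was and 16 when IC20 array 3 was. The count for S-metolachlor was 3 without control array 1, 5 without IC20 array 1 or 2 and 4 without IC20 array 3, and 29 without the 2 arrays that stand apart. That for MCPA-ME was 0 without control array 2 or IC20 array 3 and 13 without IC20 array 2, that for pyrimethanil 0 without control array 1 or IC20 array 2, and that for diuron 1 without control array 1 or IC20 array 3. Without both arrays that stand apart 40 differed with carbofuran, 17 with MCPA-ME and 14 with pyrimethanil. For the fits that left out arrays the shares of all genes that differed were not counted.

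Across the 60 factors the changes with the 15 pairs of pesticides correlated at r = -0.48 (MCPA-ME and S-metolachlor) to 0.55 (pyrimethanil and S-metolachlor). Carbofuran and pyrimethanil were at -0.40, carbofuran and S-metolachlor at -0.39, MCPA-ME and pyrimethanil at -0.33, alachlor and MCPA-ME at 0.41 and diuron and MCPA-ME at 0.43, and the other 8 pairs between -0.23 and 0.37. Across all 5449 genes the outermost pairs had r = 0.51 and 0.50. The MCPA-ME and carbofuran values include the arrays that stand apart. These are descriptions over genes of the same arrays, which are not independent, and carry no p-value.

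The 6 control groups, which received no pesticide, differed among themselves in these genes about as often as in others. Limma's F test called 46 of the 60 factors (76.7%) and 78.9% of all genes. The mean of the 60 was -0.11 in the alachlor and S-metolachlor controls, 0.08 in those of MCPA-ME, 0.24 for carbofuran, 0.26 for pyrimethanil and 0.31 for diuron (log2, against the 36-array mean), so that the control groups spanned 0.42. The largest median change with a pesticide was of the same size (-0.43), and each control group belongs to 1 experiment, so that experiment and control level cannot be told apart. The carbofuran controls were the highest of the 6 for 30 factors and the lowest for 11. DBP8 had its highest control level there (11.49 on the log2 scale) and its lowest in the S-metolachlor controls (9.99), while RRP14 had its lowest there (10.82) and its highest in the diuron controls (12.43).

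A second list of 80 ribosome biogenesis factors that are not among the 60 had 36 lower (45%, where 23.7% of all genes were) and 2 higher (2.5%, against 18.4%) with carbofuran. With MCPA-ME 15 were lower (18.8%, against 8.61%) and with diuron 11 (13.8%, against 5.84%). Shares below those of all genes were found with pyrimethanil, at 5 lower (6.25%, against 9.71%), and with S-metolachlor, at 4 lower and 3 higher (5% and 3.75%, against 14.4% and 10.1%). With alachlor 0 were called by limma (4 lower at an unadjusted p under 0.05). RRP7 (-1.34), the partner of Utp22, and REX4 (-1.10) fell most with carbofuran, and NAN1 (0.31), the remaining UtpA subunit, and TIF6 (0.19) rose. UTP23 (-0.49) and RSA4 (-0.49) led the falls without overlap with MCPA-ME, RSA4 (-0.56) and DHR2 (-0.48) with diuron, and MDN1, the giant ATPase that remodels the large subunit precursor, with pyrimethanil (-0.48) and S-metolachlor (-0.44). BUD21 (1.05) and RCL1 (0.47) rose most with S-metolachlor. Without the 2 arrays that stand apart 59 of the 80 were lower with carbofuran (73.8%, against 31.8% of all genes) and 64 with MCPA-ME (80%, against 16%). The 80 were also higher in these 2 arrays than in the others of their groups, so these counts are no separate support.

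The RNA polymerase I list, 14 subunits and initiation factors, had 5 lower with carbofuran (35.7%, where 23.7% of all genes were), 5 with MCPA-ME (35.7%, against 8.61%), 2 with diuron (14.3%, against 5.84%) and 1 with alachlor (7.14%, against 1.5%). It had 1 lower with pyrimethanil (7.14%, against 9.71%) and 2 lower and 2 higher with S-metolachlor (14.3% each, against 14.4% and 10.1%), which are near or below the shares of all genes. The largest falls were RPA43 (-1.18) and RPA34 (-1.16) with carbofuran and RPA14 with MCPA-ME (-1.18), and RRN11, of the core factor, fell with carbofuran (-0.83) and rose with S-metolachlor (0.79). RRN3, the factor that readies the polymerase to start on ribosomal DNA, fell with 4 pesticides, by 0.72 with MCPA-ME, 0.72 with diuron, 0.51 with alachlor and 0.45 with carbofuran on the log2 scale. With diuron it had 2616, 2563 and 3299 in the control arrays and 1659.8, 1622 and 1855 in the IC20 arrays (limma adjusted p = 5.42e-05), without overlap. The 127 cytosolic ribosomal protein genes had medians from -0.06 to -0.01 over the 6 comparisons. Of these genes 35 (27.6%) were lower with carbofuran, 17 (13.4%) with S-metolachlor and 16 (12.6%) with pyrimethanil, near or not far above the 23.7%, 14.4% and 9.71% of all genes. With MCPA-ME 3 (2.36%, against 8.61%) were lower, with alachlor 1 (0.787%, against 1.5%) and with diuron 0 by limma (against 5.84%; 3 at an unadjusted p under 0.05). Without the 2 arrays that stand apart 31.8% of all genes were lower with carbofuran and 16% with MCPA-ME. Of the polymerase I list 5 (35.7%) and 7 (50%) then were, and of the ribosomal protein genes 43 (33.9%) and 4 (3.15%).

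Of 12 known regulators of these genes 5 fell with S-metolachlor (41.7%, where 14.4% of all genes did), 3 with MCPA-ME (25%, against 8.61%), 2 with pyrimethanil (16.7%, against 9.71%) and 2 with carbofuran (16.7%, below the 23.7% of all genes). With pyrimethanil and carbofuran 1 each rose (8.33%, against 6.39% and 18.4%), and 0 were called by limma with alachlor or diuron (0 and 2 at an unadjusted p under 0.05). Without the 2 arrays that stand apart 4 regulators fell with carbofuran (33.3%, against 31.8% of all genes) and 2 with MCPA-ME (16.7%, against 16%), both near the share of all genes. SFP1, an activator of ribosome biogenesis genes, rose 1.36-fold with carbofuran, from 1766 ± 80.9 to 2409 ± 185 (SD, n = 3; limma adjusted p = 0.0106), the pesticide with the deepest falls among the 60. DOT6 and TOD6, repressors that bind the promoters of these genes, fell with S-metolachlor (-0.76 and -0.31) and with MCPA-ME (-0.50, with overlapping groups, and -0.37), and DOT6 also with pyrimethanil (-0.58). STB3, a further repressor, fell with S-metolachlor (-0.56) and pyrimethanil (-0.43), and SCH9, a growth kinase, with S-metolachlor (-0.66). CRF1, a corepressor of ribosomal protein genes in some strains, was dim throughout and rose with pyrimethanil from 61.4 ± 4.89 to 131 ± 19.8. It fell with MCPA-ME from 61 ± 12.3 to 28.7 ± 4.88, to below the floor, so that the size of this fall is set by the floor. The general regulators ABF1 (-0.64) and REB1 (-0.34) fell with carbofuran, and REB1 also with S-metolachlor (-0.25).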

How the data were processed

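Total RNA from 36 cultures, 3 in each of 12 groups described as independent biological triplicates, was hybridised to Affymetrix Yeast Genome 2.0 arrays, and p-values measure the spread between these cultures. The deposited data are linear probe set intensities. The authors obtained them from Affymetrix Expression Console, per the submitters' processing notes, with version, probe summary and normalization not given in the sources used here. In all 5716 probe sets were listed. The supplied annotation gave 5498 of them 1 gene and named none for 218. For 47 genes with several probe sets that with the highest mean over 36 arrays was kept. Values under the floor of 32 made up 1.778% of those tested. The linear model had 1 mean per group and was fitted in R 4.3.3 by limma 3.58.1, with 24 residual degrees of freedom (moderated to 25.8) and two-sided tests, with Benjamini-Hochberg adjustment over 5449 genes per contrast and calls at an adjusted p under 0.05. Further contrasts set each change against the mean of the other 5, and an F test compared the 6 control groups. The scripts were tested on simulated data. No arrays were identical. Array data carry no counts, so the number of arrays limits the precision.

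The members, the gene lists and the tests were chosen with earlier results of these data known. Factors given with every array value are, for each pesticide, the 3 called ones with the largest change in each direction without overlap between the groups, and those called with the most pesticides. Further called factors follow by size. Other values were chosen after they were seen, namely those of factors not called, of DBP3, NOP12, ROK1, UTP18, DBP7, RRN3, NOP53 and RRP14, and of the RNA polymerase I genes. Whether same-numbered cultures pair was checked from their deviations from the group means across genes. With diuron all pairs correlated above 0.1 (0.35 to 0.40), as with pyrimethanil (0.17 to 0.38). The other 4 pesticides each had a pair at or below it. The replicate block was an alternative. The other alternatives were quantile normalization, median centring, an offset of 16 without a floor, a filter on the dimmest 25% of genes, only the 6 arrays of a pesticide, array weights, limma's trend and robust options, all 18 controls as 1 group, all probe sets with 1 gene, leaving out each array in turn and, chosen after the data were seen, leaving out both arrays that stand apart. Promoter motifs were not analysed here.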

Additional observations from a re-analysis of the deposited data

Results flagged for a closer look

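The change with carbofuran differed from the mean change with the other 5 pesticides for 29 of the 60 factors, by limma's test of that difference at an adjusted p under 0.05. Of these 23 were lower, where 22.9% of all genes were, and 6 higher, below the 18.5% of all genes. The change with S-metolachlor differed for 8, all higher (6.46% of all genes). That with MCPA-ME was lower for 1 (UTP15, -0.36) and that with pyrimethanil for 1 (NOP1, -0.67), below the 4.35% and 5.21% of all genes. UTP9 was in both of the first lists, at -1.04 with carbofuran and 0.80 with S-metolachlor. The control groups differed too, and their part in these differences was not tested.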

How the results depend on the processing

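A count was taken as kept within 1.5 times, and a median if its sign held and it moved by less than the SD between replicates. The 25 counts and medians described for the factors were kept under intensity plus 16, without the dimmest 25% of genes and with limma's trend and robust options. Medians were also kept with quantile normalization and median centring, at -0.034 and -0.030 with S-metolachlor and -0.12 and -0.11 with pyrimethanil. Quantile normalization moved the factors higher with S-metolachlor to 2 and the diuron difference from the other 5 to 1, and median centring moved the higher counts to 2 with carbofuran, 2 with S-metolachlor and that difference to 1, as did all probe sets (1). In the 6 arrays of a pesticide alone 3 were lower with alachlor, 6 with carbofuran, 0 with MCPA-ME and 10 with S-metolachlor, where 8 were higher. With the replicate block 2 were lower with alachlor, 10 with pyrimethanil and 17 with diuron, 3 were higher with S-metolachlor, and 3 differed from the other pesticides with diuron and 3 with MCPA-ME. Array weights gave 6 lower with alachlor, 46 with carbofuran, 36 with diuron, 48 with MCPA-ME, 19 with pyrimethanil and 21 with S-metolachlor (6 higher), and differences for 6, 10, 13, 23 and 34 with alachlor, diuron, MCPA-ME, pyrimethanil and S-metolachlor. With all 18 controls as 1 group 20 were lower with alachlor, 1 with diuron, 2 with pyrimethanil and 17 with S-metolachlor, 4 were higher with carbofuran and 0 with S-metolachlor, and the medians were -0.33 with alachlor, -0.26 with carbofuran (-0.68 with array weights), -0.095 with diuron, -0.23 with S-metolachlor and, reversed, 0.034 with pyrimethanil. Without both arrays that stand apart 47 were lower with carbofuran (median -0.71), 23 with diuron, 43 with MCPA-ME, 13 with pyrimethanil and 11 with S-metolachlor (7 higher), and 1, 5, 17, 14 and 29 differed with alachlor, diuron, MCPA-ME, pyrimethanil and S-metolachlor. Where a fit keeps all arrays and genes the cause of these moves was not tested. Among the alternatives, shares of all genes were counted only for the 6 arrays alone and without both arrays that stand apart. There they were not counted for the differences between pesticides. The other counts of factors, those with array weights included, can therefore not be set against all genes. Leaving out each array in turn gave 0 lower with alachlor (0 to 0), 24 to 43 with carbofuran (0 to 1 higher), 4 to 13 with diuron, 9 to 38 with MCPA-ME, 2 to 7 with pyrimethanil and 1 to 4 with S-metolachlor (0 to 1 higher). The medians ran from -0.15 to -0.06 with alachlor, -0.71 to -0.29 with carbofuran, -0.32 to -0.23 with diuron, -0.50 to -0.21 with MCPA-ME, -0.20 to -0.09 with pyrimethanil and -0.10 to -0.01 with S-metolachlor. The differences ran from 15 to 37 with carbofuran, 0 to 1 with diuron, 0 to 13 with MCPA-ME, 0 to 1 with pyrimethanil and 3 to 8 with S-metolachlor, and the control groups differed in 40 to 45 factors. The search for promoter motifs was not run.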

Other observations

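The 60 factors did not move as 1 block among the control groups, and the 11 factors that were lowest in the carbofuran controls were UTP14, ENP2, BFR2, LTV1, DRS1, NOP4, NOP8, NOP15, NOP16, NOP53 and RRP14, a group picked after its values were seen. None of these 11 was called with any pesticide by limma over all arrays. Without the 2 arrays that stand apart all 11 were called lower with carbofuran (log2 changes from -0.96 to -0.50), where 31.8% of all genes were. They were also all called lower with MCPA-ME (from -1.48 to -0.61), where 16% of all genes were. In MCPA-ME IC20 array 2, 10 of them lay above all 3 controls, and in arrays 1 and 3 all 11 lay below all 3 controls. Leaving out array 2 thus nearly fixed the MCPA-ME count of these 11 in advance. With MCPA-ME RRP14 had 4265, 2061 and 2653 in the control arrays and 1216, 5704 and 959.9 in the IC20 arrays. They span the small subunit, the helicases and the large subunit, and their part in the spread between arrays was not tested.

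The 3 IC20 arrays of a group ordered the factors alike in some groups and not in others. Over the 60 factors the changes of single arrays from their own control mean, which all contain that same mean, correlated at 0.89 to 0.93 between the S-metolachlor arrays. Between MCPA-ME arrays 1 and 3 the correlation was 0.93, but arrays 1 and 2 were at -0.67 and arrays 2 and 3 at -0.62. Carbofuran arrays 1 and 2 were at 0.22, arrays 1 and 3 at 0.68 and arrays 2 and 3 at 0.80. In MCPA-ME array 2 the 80 other ribosome biogenesis factors had a median of 0.23 against -0.52 and -0.48 in arrays 1 and 3, while the median of the ribosomal protein genes stayed between -0.02 and 0.01 in these arrays.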
